A study of Homo sapiens with 4 samples.

Results

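The genes described here are those of the cytoplasmic actins and of proteins that bind actin filaments, 10 of the 16834 genes in the deposited gene table. They are ACTB, ACTG1, TPM1, TPM4, MYL9, VCL, FLNA, ACTN1, ACTN4 and CFL1, found by exact gene symbol. The set was chosen by a measured value: ACTB was lower in the library from cells treated with NBT than in the control library, although its protein, β-actin, was the loading control of the Western blots of the study. The NBT against control values below are therefore a description.

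RNA of MIA PaCa-2, a human pancreatic ductal adenocarcinoma line, was sequenced after 12 h in 4 conditions, each as 1 library of cells labelled wild type: control, 1 µM NBT, 5 µM trametinib, and 1 µM NBT with 5 µM trametinib (combination). NBT is neobractatin, a natural compound from Garcinia bracteata, and trametinib is an inhibitor of the kinase MEK. The study set the combination against each drug and the control. A vehicle for the control was not given in the sources used here. The labels enter the cell line as MIA PaCa-2 for the control and with other final numbers for the treated libraries, while all 4 titles name MIA PaCa-2.

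Each library held between 18776212 and 19614763 estimated reads. With 1 library per condition there was no replicate check, so no p-value is given, and every interval is a 95% Clopper-Pearson interval that covers counting error between 2 libraries and not the spread between cultures. A log2 fold change is that of estimated reads scaled to the library sum with 0.5 reads added. A gene was counted as lower or higher past a limit, 2-fold or 1.5-fold, if its interval also left out 0, and such counts are set beside the share of all genes past the same limit. In RNA from whole cultures, fewer cells of a type and less RNA per cell cannot be told apart.

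Marker genes were set beside the labelled line. Most listed epithelial markers were clearly present in all 4 libraries: KRT8 lay between 1493 and 3799 TPM (transcript abundance scaled to gene length and to a fixed library sum), KRT18 between 995 and 3142 TPM, EPCAM between 209 and 242 TPM and CDH1, the gene of E-cadherin, between 51.2 and 86.9 TPM. KRT7 was low, between 2.25 and 5.74 TPM, and KRT19, also listed, had no entry. VIM lay between 11.5 and 26.4 TPM, CDH2 was at or below 0.0800 TPM, and CDKN2A lay between 249 and 342 TPM. MIA PaCa-2 is known for abundant vimentin, little E-cadherin and a deletion of CDKN2A. The levels of VIM, CDH1 and CDKN2A thus go against the labelled line in every library. VIM, CDH2 and CDKN2A were picked as markers after their values were seen, and the identity of the cells was not tested. Of the other cell types, the summed level of 4 of 7 fibroblast markers reached at most 1.90 TPM, of 4 of 6 muscle markers 1.11 TPM, of 3 of 4 immune markers 5.21 TPM and of 3 of 4 endothelial markers 0.670 TPM. COL1A2, LUM and PDGFRB had at most 5 reads in any library and DES at most 1. More reads fell to COL1A1 (27 to 98), MYH11 (16 to 31), PECAM1 (14 to 26) and VWF (3 to 25). CD3E, at 0 reads in the control and NBT libraries, had 55 with trametinib and 29 with the combination.

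Actin is the protein of which the thin filaments of every cell are built. In cells outside muscle it is made from ACTB (β-actin) and ACTG1 (γ-actin), and the filaments are laid along by tropomyosins, cross-linked by α-actinins and filamins, tied to cell adhesions by vinculin, pulled on by myosin II and cut by cofilin. Monomeric actin also holds the coactivators MRTFA and MRTFB away from the transcription factor SRF, which binds the CArG box in the promoters of many cytoskeletal genes, the actins included. β-actin is often used as a loading control since it is abundant and taken to be steady.

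The coding sequences of both actins are shown first, because reads of near-identical genes can be divided wrongly between them. ACTB lies at chr7:5527148-5530601 and ACTG1 at chr17:81509971-81512799 (GRCh38.p14). Their coding sequences, read from GENCODE v29 transcripts on GRCh38, are both 1128 bases long and differ at 99 of them, an identity of 91.2%. The first 60 coding bases, 5′ to 3′, differ at the 10 bases in capitals.
ACTB: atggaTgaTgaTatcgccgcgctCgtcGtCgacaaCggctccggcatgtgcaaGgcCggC
ACTG1: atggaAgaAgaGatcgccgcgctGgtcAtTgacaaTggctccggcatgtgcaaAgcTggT
Of all stretches of 25 bases in the whole ACTB transcript, 7.38% were found letter for letter in that of ACTG1, and of those of 100 bases, 0 were. The read length was not given in the sources used here. How far reads were shared between the genes was not tested, so values are given for each gene and for the pair as 1 unit.

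ACTB was among the most abundant messages in all 4 libraries. Its estimated reads numbered 150619 in the control library, 104830 under NBT, 151410 under trametinib and 96936 under both drugs, or 8022, 5393, 7990 and 4942 CPM (reads scaled to the library sum). It ranked 3 among all genes by reads in the control and trametinib libraries, 5 with NBT and 7 with the combination. Both libraries that received NBT were low, and the others lay close together. Against the control, the log2 fold change of ACTB was -0.57 (-0.58 to -0.56) with NBT, 1.49 times lower, and -0.01 (-0.02 to 0.00) with trametinib. It was -0.70 (-0.71 to -0.69) with the combination, and -0.69 (-0.70 to -0.68) for the combination against trametinib, a comparison that shares no library with that of NBT against control. ACTB stayed lower in these comparisons with NBT under all 7 alternative scalings and tables, between -0.64 and -0.51 for NBT against control.

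ACTG1 had the lowest value with NBT among the 9 genes that were expressed. Its reads numbered 72268 in the control library, 41154 under NBT, 86893 under trametinib and 55426 under both drugs. The NBT library was the lowest and the trametinib library the highest, with the combination between the NBT and control libraries. The log2 fold change against the control was -0.86 (-0.88 to -0.84) with NBT, 1.82 times lower, 0.25 (0.24 to 0.27) with trametinib and -0.45 (-0.46 to -0.43) with the combination. Against trametinib, the combination was lower by a log2 fold change of -0.70 (-0.71 to -0.68), and against NBT it was higher, at 0.42 (0.40 to 0.43).

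Taken as 1 unit, ACTB and ACTG1 made up 1.19% of the reads in the control library, 0.751% under NBT, 1.26% under trametinib and 0.777% under both drugs. The pair was thus low in both libraries with NBT and within 0.08 log2 units of the control with trametinib. Its log2 fold change was -0.66 (-0.67 to -0.65) for NBT against control and -0.70 (-0.70 to -0.69) for the combination against trametinib. There were 2.08 reads of ACTB for each read of ACTG1 in the control library, 2.55 under NBT, 1.74 under trametinib and 1.75 under both drugs, so ACTG1 was lower by more than ACTB with NBT alone, and ACTB by more than ACTG1 in the combination against control.

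The other actin genes, which make the actins of skeletal, cardiac and smooth muscle or close copies, were barely read. ACTA1, ACTC1, ACTG2 and ACTBL2 had at most 9 reads in any library, ACTA2 at most 14 and POTEE at most 21. POTEF, whose predicted protein carries an actin domain, had 69 reads in the control library, 40 under NBT, 78 under trametinib and 117 under both drugs. Reads of POTEE and POTEF may come from ACTB, to which they are closely related in sequence, and their counts are uncertain for that reason.

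**Figure D1:**
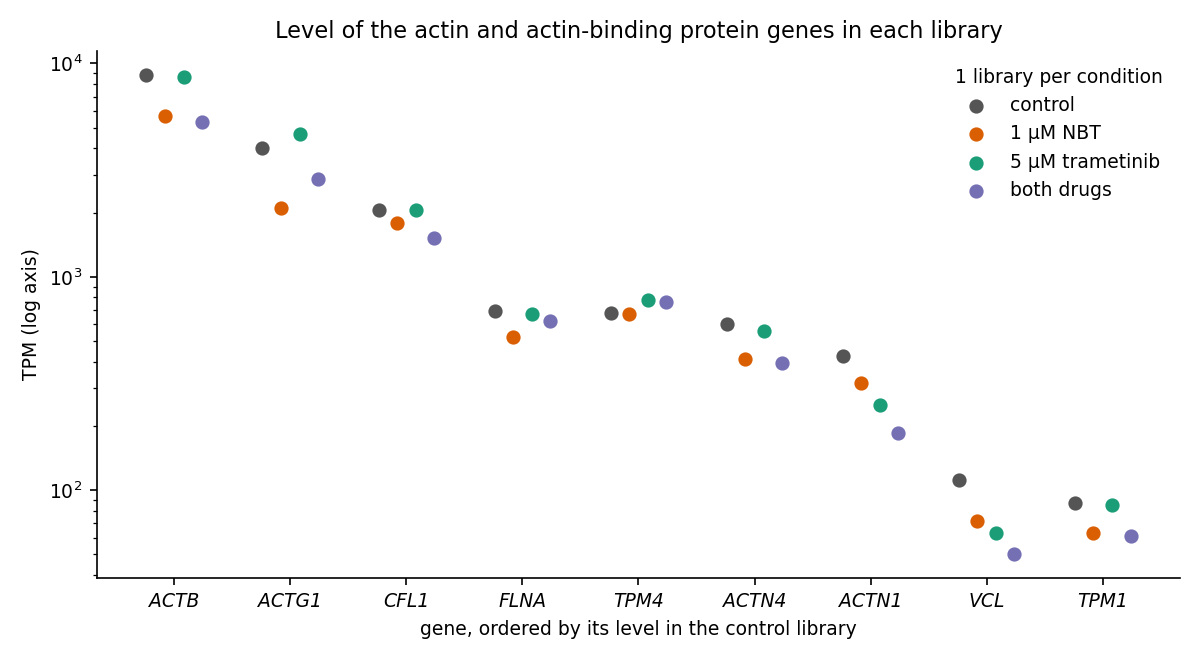
Level of each gene in TPM (vertical log axis) in the 4 libraries, with 1 point per library and no replicates. ACTB lies at 8857 and 8668 TPM in the control and trametinib libraries and at 5688 and 5313 TPM in those with NBT. ACTB, TPM1, VCL, ACTN1, ACTN4 and CFL1 are lowest with the combination, and MYL9, at or near 0, is left out.

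Compared per length, the order of the levels was nearly the same in all libraries. In the control library ACTB stood at 8857 TPM, ACTG1 at 4003, CFL1 at 2062, FLNA at 690, TPM4 at 680, ACTN4 at 602, ACTN1 at 426, VCL at 112 and TPM1 at 86.6 TPM. FLNA and TPM4 were next to each other in the control, and TPM4 was above FLNA in the other 3 libraries. VCL was above TPM1 in the control and NBT libraries and below it in those with trametinib. Summed over the 10 genes, the level was 1.75% of all TPM in the control library, 1.16% under NBT, 1.78% under trametinib and 1.18% under both drugs, so the libraries with NBT lay together and below those without it. Most of that difference came from ACTB and ACTG1, which held the larger part of the sum.

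MYL9 encodes a regulatory light chain of myosin II that is typical of smooth muscle. It had 0 reads in the control and NBT libraries, 2 under trametinib and 3 under both drugs, where 0 reads in the control allow up to 0.160 CPM. No fold was formed from these counts, and 9 of the 10 genes were over the floor of 3 reads. MYL12A and MYL12B, which encode the light chains of non-muscle myosin II, had 3555 and 5679 reads in the control library. Their log2 fold changes with NBT were 0.27 and 0.20, and with the combination 0.08 and 0.30.

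The tropomyosins, which lie along the filament and govern what else binds to it, went different ways. TPM1 had 1361 reads in the control library, 1108 under NBT, 1357 under trametinib and 1057 under both drugs. Like ACTB it was low in both libraries with NBT, with a log2 fold change of -0.35 (-0.46 to -0.23) for NBT and -0.43 (-0.55 to -0.31) for the combination against control. TPM4 had 15769, 16919, 18498 and 19100 reads in the same order, and was a little higher in both libraries with trametinib, by 0.22 (0.19 to 0.25) with trametinib and 0.21 (0.18 to 0.24) with the combination. With NBT its value was 0.05 (0.02 to 0.08), which became -0.02 with the deposited TPM. TPM2 and TPM3 had 355 and 13818 reads in the control library and log2 fold changes of 0.19 and 0.10 with NBT and -0.05 and -0.21 with the combination.

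VCL encodes vinculin, which links actin filaments to integrin and cadherin adhesions. Its reads numbered 5896 in the control library, 4105 under NBT, 3413 under trametinib and 2842 under both drugs. All 3 treated libraries were below the control and the combination was the lowest. The log2 fold change against control was -0.57 (-0.63 to -0.51) with NBT, -0.80 (-0.86 to -0.74) with trametinib and -1.12 (-1.18 to -1.05) with the combination.

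The α-actinins cross-link filaments into bundles, ACTN1 mainly in stress fibres and at adhesions. ACTN1 had 14880 reads in the control library, 12012 under NBT, 8972 under trametinib and 6971 under both drugs, the same order as VCL. Its log2 fold change was -0.36 (-0.39 to -0.32), -0.74 (-0.78 to -0.71) and -1.16 (-1.20 to -1.12) for NBT, trametinib and the combination. ACTN4, its close paralog, followed ACTB rather than ACTN1: it had 21606 reads in the control library, 16134 under NBT, 20609 under trametinib and 15410 under both drugs. The log2 fold change of ACTN4 was -0.47 (-0.50 to -0.44) both for NBT against control and for the combination against trametinib, and -0.08 (-0.11 to -0.05) for trametinib against control.

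FLNA encodes filamin A, which joins crossing filaments into a network and ties them to membrane proteins. It had 56290 reads in the control library, 46201 under NBT, 56338 under trametinib and 54439 under both drugs, so that the NBT library stood lowest. The log2 fold change was -0.33 (-0.35 to -0.32) for NBT, and -0.11 (-0.13 to -0.09) for the combination against control, which became 0.15 when libraries were scaled to reference genes. FLNC, the filamin of muscle, had 0 reads in the control and NBT libraries and 33 and 45 in those with trametinib, alone and combined.

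CFL1 encodes cofilin, which severs filaments and returns monomers to the pool. Its reads numbered 23783 in the control library, 22459 under NBT, 24295 under trametinib and 18785 under both drugs, and only the combination stood clearly apart. The log2 fold change was -0.13 (-0.16 to -0.11), 0.02 (-0.01 to 0.04) and -0.40 (-0.43 to -0.38) for NBT, trametinib and the combination against control. Of its relatives, CFL2 stood at -0.30, 0.69 and -0.01 and DSTN, the gene of destrin, at -0.04, 0.40 and 0.06 in the same comparisons.

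**Figure D2:**
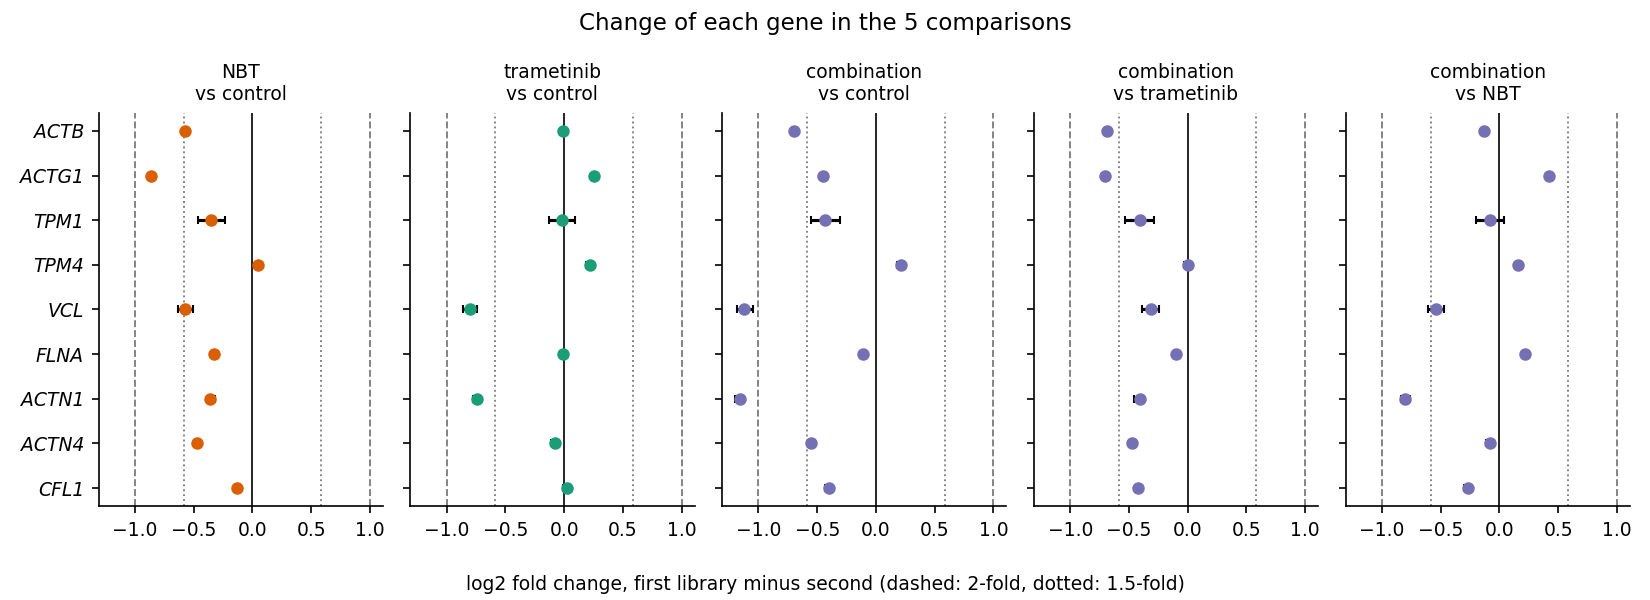
Log2 fold change of the 9 expressed genes in each of the 5 comparisons (horizontal axis), with bars for the 95% interval from counting error and vertical lines at 1.5-fold (dotted) and 2-fold (dashed). With NBT 8 of the 9 points lie below 0, with trametinib VCL (-0.80) and ACTN1 (-0.74) stand apart, and with the combination these genes pass 2-fold.

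Set against all genes, the counts past the limits were as follows. With NBT against control, 0 of the 9 genes were 2-fold lower (0.884% of all genes tested were) and ACTG1 was 1.5-fold lower (3.82% of all genes), and nothing is read from these shares since the set was chosen on this comparison. Just outside the 1.5-fold limit lay ACTB and VCL, both at -0.57. No gene of the set was 1.5-fold higher, which 4.83% of all genes were. Of the 9 genes, 8 were below 0 with a median of -0.36, where the median of all 11081 genes tested was 0.00. By rank, 455 of those genes (4.11%) had a lower value than ACTB and 152 (1.37%) a lower value than ACTG1.

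With trametinib against control, 0 of 9 were 2-fold lower (2.33% of all genes) and VCL and ACTN1 were 1.5-fold lower (5.74% of all genes). None were 1.5-fold higher (8.97% of all genes). The median of the 9 genes was -0.01 and that of all 11222 genes tested was 0.06. The other 7 genes lay between -0.08 and 0.25, near the middle of the distribution, so the lower values with trametinib were those of the 2 adhesion and bundling genes.

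With the combination against control, 2 of 9 were 2-fold lower, VCL and ACTN1 (4.09% of all genes), and 3 of 9 were 1.5-fold lower, with ACTB added (10.8% of all genes). None were 1.5-fold higher (12.9% of all genes). Nearest inside the 2-fold limit was VCL at -1.12 and nearest outside it ACTB at -0.70. The median was -0.45 beside 0.02 over all 11207 genes tested. When libraries were scaled to the median of the reference genes, VCL stood at -0.85 and ACTN1 at -0.89 and no gene passed 2-fold. Some epithelial markers moved in the same libraries: the summed level of the 5 of 6 listed markers in the table was 7274 TPM in the control library, 6110 under NBT, 3564 under trametinib and 2765 under both drugs, led by KRT8 and KRT18. EPCAM was steady. CDH1 went another way, at 85.4 TPM in the control library, 51.2 under NBT, 86.9 under trametinib and 57.0 under both drugs. The part of these marker changes in the VCL and ACTN1 values was not tested.

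For the combination against trametinib, which gives the effect of adding NBT in the presence of trametinib, 0 of 9 were 2-fold lower (3.79% of all genes) and ACTB and ACTG1 were 1.5-fold lower (10.6% of all genes). None were 1.5-fold higher (8.28% of all genes). The median was -0.41 beside -0.03 over all genes. In this comparison 898 of the 11267 genes tested (7.97%) lay below ACTB, a higher share than in NBT against control, where fewer genes overall had moved. For the combination against NBT, which gives the effect of adding trametinib to NBT, 0 of 9 were 2-fold lower (2.03% of all genes) and ACTN1 was 1.5-fold lower, at -0.80 (5.10% of all genes). None were 1.5-fold higher (6.01% of all genes). ACTB was at -0.13 and ACTN4 at -0.08 there, and both turned to 0.08 and 0.12 when scaled to the reference genes. Comparisons that share a library share its counting error, so the 5 sets of values are not independent of each other.

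The loading control question was followed with 19 genes in common use as references. With NBT against control, the reference genes had a median log2 fold change of -0.04 and a lowest value of -0.46 (LMNB1, a nuclear lamin), so 0 of the 19 lay below ACTB or ACTG1. The set was chosen for the low value of ACTB in this comparison, so its place below the references is a description only. GAPDH, the glycolytic enzyme most often used beside β-actin, stood at -0.05 (-0.06 to -0.05). Read as a ratio, there were 0.576 reads of ACTB per read of GAPDH in the control library, 0.402 under NBT, 0.566 under trametinib and 0.428 under both drugs. The log2 fold change of ACTB minus that of GAPDH was -0.52 with NBT and -0.43 with the combination, and -0.02 with trametinib.

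With the combination the references themselves were spread. Their median was -0.27, and 3 of the 19 lay below ACTB against control: TFRC, the transferrin receptor, at -0.92, LMNB1 at -0.87 and TUBB, a β-tubulin, at -0.79. GAPDH stood at -0.27. With trametinib, ACTB at -0.01 lay close to the reference median of 0.05, and 7 of the 19 were lower. Over all 4 libraries the narrowest range of CPM was that of YWHAZ, 1.09-fold, followed by IPO8 at 1.21-fold, and RPLP0 and GAPDH at 1.22-fold. RPL13A, PPIA, TBP, PGK1, TUBA1B, HPRT1, GUSB and SDHA ranged from 1.24-fold to 1.46-fold and VDAC1 1.53-fold. ACTB ranged 1.62-fold and ACTG1 2.17-fold, with B2M at 1.72-fold, TUBB at 1.80-fold, LMNB1 at 1.83-fold and TFRC at 1.90-fold. These are messages after 12 h, and the protein used on a blot was not measured here. The study's blots of GSDME cleavage with β-actin followed a longer treatment, and its assays of AKT1 mRNA used another control than ACTB.

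**Figure D3:**
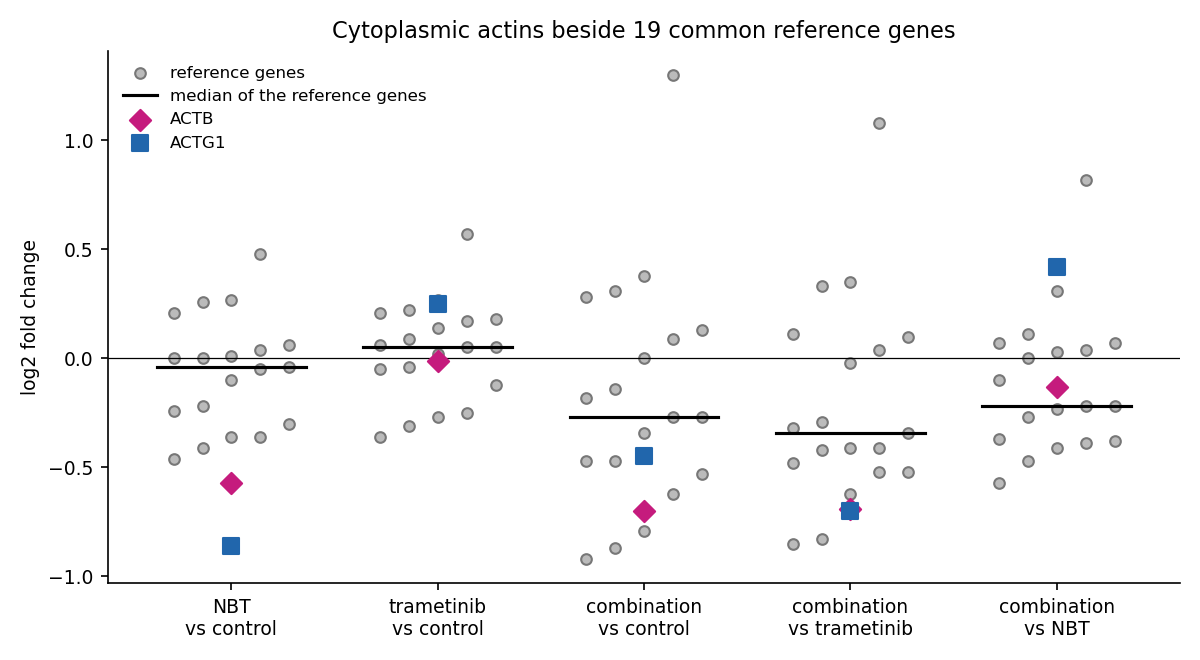
Log2 fold change (vertical axis) of ACTB and ACTG1 beside 19 common reference genes (grey points, with their median as a black bar) in the 5 comparisons, 1 library against 1. With NBT against control, the comparison on which the set was chosen, both actins lie below all the reference genes. With trametinib ACTB lies near their median of 0.05, and in both comparisons of the combination with a library without NBT some references lie lower still.

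Whether NBT acted on these genes alike without and with trametinib was described by the difference between its log2 fold changes in both settings, with a 95% interval from the 4 counts. For ACTN4 the difference was 0.00 (-0.04 to 0.04), for ACTN1 -0.05 (-0.11 to 0.00), for TPM4 -0.06 (-0.10 to -0.01) and for TPM1 -0.06 (-0.23 to 0.10), under the scaling to library sums. Scaled to the reference genes, these 4 stood at 0.22 (ACTN4), 0.16 (ACTN1), 0.16 (TPM4) and 0.15 (TPM1), so their closeness to 0 rests on the scaling. ACTB differed by -0.12 (-0.14 to -0.10), the change being larger with trametinib present, which turned to 0.09 when scaled to the reference genes. The value was nearer 0 with trametinib present for ACTG1, by 0.16 (0.14 to 0.19), for FLNA, by 0.24 (0.21 to 0.26), and for VCL, by 0.26 (0.17 to 0.35). CFL1 differed the other way, by -0.29 (-0.33 to -0.25): its value for NBT was -0.13 alone and -0.42 with trametinib, and scaled to the reference genes the difference was -0.08. In that scaling ACTG1, FLNA and VCL stood at 0.38, 0.45 and 0.47. The single-drug values of VCL sum to -1.37, where the combination gave -1.12, and those of ACTN1 to -1.10, where it gave -1.16.

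**Figure D4:**
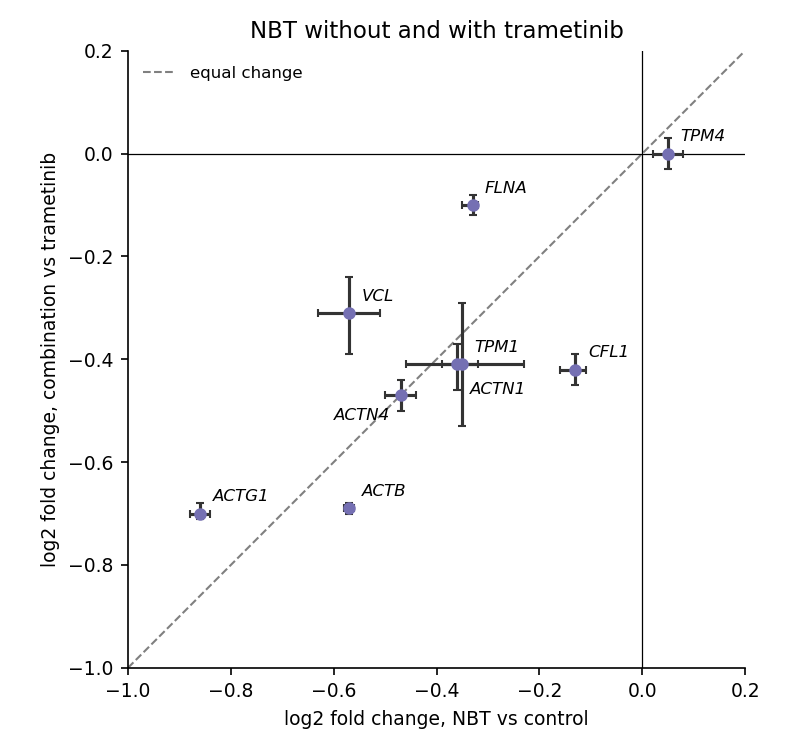
Log2 fold change with NBT in the absence (horizontal axis, NBT against control) and presence of trametinib (vertical axis, combination against trametinib) for the 9 expressed genes, which share no library between the axes. Bars are 95% intervals from counting error and the dashed line marks equal change; ACTN4 lies on the line at -0.47, FLNA and VCL above it and CFL1 below it.

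The transcript table divides each gene among annotated transcripts by a model, so shares of minor transcripts are estimates. ACTB and CFL1 have 1 transcript each in the table, and ACTG1 was almost wholly NM_001614.5, with 97.9% to 98.9% of its reads. VCL was 96.0% to 98.4% NM_014000.3, and its other transcript, NM_003373.4, had 221 reads in the control library, 142 under NBT, 137 under trametinib and 44 under both drugs. ACTN1 was 94.6% to 96.6% NM_001102.4 whether counted in reads or TPM. FLNA was divided between NM_001110556.2 and NM_001456.3 in nearly the same parts everywhere, with 78.6% to 80.3% in the first. In ACTN4, the predicted transcript XM_005259281.5 had 1338 reads in the control library, 230 under NBT, 605 under trametinib and 221 under both drugs, or 6.19%, 1.43%, 2.94% and 1.43% of the gene, while XM_017027331.2 held 57.3% in the control and 64.0% to 65.1% in the treated libraries. TPM4 was led by NM_003290.3, with 63.0%, 55.4%, 55.6% and 62.9% of its reads, and TPM1 by NM_001330344.2, with 49.7% to 56.4%. The leading transcripts of ACTG1, VCL, FLNA and ACTN1 thus carried the values of their genes.

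The promoters are shown because members of this family are known targets of SRF. In RefSeq windows from 250 bases before to 50 after a gene's start on GRCh38.p14, 8 of the 10 genes had 14 promoters, with no entry for ACTB and MYL9. The CArG box, which is its own reverse complement as a pattern so that a search of 1 strand covers both, was found in 4 of the 14 promoters (28.6%), those of 4 genes, and in 454 of all 35116 promoters (1.29%). The 70 bases around each box, all before the start, are given 5′ to 3′ on the strand of the gene, with the box in capitals. ACTG1 lies on the minus strand at chr17:81512854-81512923 with the box 94 to 85 bases before the start, FLNA on the minus strand at chrX:154374689-154374758 with the box at the same distance, TPM4 on the plus strand at chr19:16067335-16067404 with the box 173 to 164 bases before, and ACTN1 on the minus strand at chr14:68977698-68977767 with the box 171 to 162 bases before.
ACTG1: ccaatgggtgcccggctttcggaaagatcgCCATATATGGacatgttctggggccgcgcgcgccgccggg
FLNA: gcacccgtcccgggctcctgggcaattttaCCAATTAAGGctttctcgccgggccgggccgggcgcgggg
TPM4: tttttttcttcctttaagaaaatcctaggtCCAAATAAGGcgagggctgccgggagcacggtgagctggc
ACTN1: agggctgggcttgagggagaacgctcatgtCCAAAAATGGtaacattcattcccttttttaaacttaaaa
The ACTG1 and FLNA starts are those of the transcripts that hold their reads. The TPM4 start is that of NM_001145160.2, which held 12.8% to 16.4% of the gene's reads, and not of the leading transcript. The ACTN1 start matched none of the transcripts that could be placed through GENCODE v29, and transcripts that could not be placed were not checked. Among the genes with a box, the log2 fold change with NBT ran from -0.86 (ACTG1) to 0.05 (TPM4). VCL, ACTN4, CFL1 and TPM1 had none in these windows, which says nothing about a box elsewhere. The TPM1 window is at the start of NM_001301289.2, which held 13.2% to 24.0% of the gene's reads, and not of its leading transcript.

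The regulators of this promoter element were read as a list of 16 genes, MRTF and SRF with known targets, of which 10 to 11 had at least 50 reads. With NBT the list had a median of -0.28, with 7 of 10 below 0 (50.4% of all genes were) and 2 past 1.5-fold lower (3.82% of all genes), CNN2 (calponin 2, -0.68) and CCN1 (a secreted matrix protein, -0.64). With the combination against control the median was -0.23 and 3 of 11 were 2-fold lower (4.09% of all genes): CCN2 (-2.23, from 163 to 36 reads), CNN2 (-1.30) and CCN1 (-1.17). CNN1, calponin 1, went from 3 reads in the control library to 84 under trametinib and 53 under both drugs, that is, by 4.58 (3.20 to 7.10) and 3.87 (2.45 to 6.40) log2 units. For the combination against trametinib 6 of 11 were 1.5-fold lower (10.6% of all genes), with a median of -0.63 beside -0.03 over all genes. SRF itself stood at -0.22, 0.22 and -0.17 for NBT, trametinib and both drugs, MRTFA at -0.34, 0.34 and -0.09 and MRTFB at -0.46, 0.30 and -0.40.

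Other parts of the filament machinery were counted in the same way. Beside their counts stand the shares of all genes: with NBT 50.4% were below 0, 3.82% were 1.5-fold lower and 4.83% higher, and with the combination 10.8% were 1.5-fold lower, 4.09% 2-fold lower and 12.9% 1.5-fold higher. In the list of myosin II and its regulators, 8 of 10 genes were below 0 with NBT and 2 were 1.5-fold lower, MYH9, the main non-muscle myosin heavy chain (-0.65, from 40885 to 26905 reads), and MYLK, the kinase of its light chain (-0.61, from 165 to 112 reads). Against control, MYLK was higher with trametinib, at 1.72, and with the combination, at 0.86, while MYH9 was at -0.57 with the combination. The Arp2/3 complex, which starts branched filaments, had 0 of 9 subunits past 1.5-fold in any comparison, and its medians were 0.10, 0.15 and -0.07 with NBT, trametinib and the combination. The largest values among its subunits were those of ARPC3 (0.18) and ACTR3 (0.15) with NBT and of ARPC1B (-0.46) and ACTR3 (0.43) with the combination.

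Among 12 formins and other nucleators, 1 was 1.5-fold lower with NBT, BAIAP2 (-0.81), and INF2 stood at -0.48. With the combination 4 of 12 were 1.5-fold lower (10.8% of all genes), led by FHOD1 (-1.01) and INF2 (-0.85), both formins. Of 20 genes of monomer binding, capping and turnover, the group to which cofilin belongs, 0 passed 1.5-fold with NBT, where PFN2, a profilin, stood at 0.38 and LIMK2, a kinase of cofilin, at -0.32. With the combination 2 of the 20 were 1.5-fold higher, TESK1, another kinase of cofilin (0.74), and PFN2 (0.64).

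Of 12 cross-linkers and membrane linkers, 2 were 1.5-fold lower with NBT, FSCN1, the bundling protein fascin (-0.67), and ANLN, the cytokinesis scaffold anillin (-0.63). FSCN1 was lower still with the combination, with 14227 reads in the control library and 3711 with both drugs and an interval of -2.05 to -1.95 for its log2 fold change, and MARCKSL1 was at -1.09 (143 and 70 reads), so that 2 of 12 passed 2-fold. Of 15 partners at focal adhesions, where vinculin and α-actinin also sit, TES was 2-fold higher with NBT (1.05) and with the combination (1.57). Of all genes tested, 160 of 11081 were 2-fold higher with NBT and 511 of 11207 with the combination. TNS3 was lower with NBT (-0.70), and PDLIM7 was at -0.98 with the combination. In that list 3 of 15 were 1.5-fold lower with the combination and 1 was higher. The 19 reference genes had 0 past 1.5-fold with NBT and 4 lower with the combination, and the 7 paralogs tested had none in either comparison.

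With trametinib against control, genes of these lists passed 1.5-fold in both directions, as did 5.74% (lower) and 8.97% (higher) of all genes. Of myosin II and its regulators 3 were higher and 0 lower, of the nucleators 0 higher and 2 lower, of the genes of monomer binding and turnover 3 higher and 1 lower and of the cross-linkers 2 higher and 1 lower. The focal adhesion list had 1 in each direction, the MRTF and SRF list 2 in each, the paralogs 1 higher (CFL2) and the reference genes 0. For the combination against trametinib, where ACTB and ACTG1 were both 1.5-fold lower, the counts of lower and higher genes, beside 10.6% and 8.28% of all genes, were 2 and 0 of the myosin II list, 2 and 0 of the nucleators, 3 and 1 of monomer binding and turnover, 3 and 1 of the cross-linkers, 1 and 1 of the focal adhesion list and 1 and 0 of the paralogs, and 3 of the references were lower. For the combination against NBT, where 5.10% of all genes were lower and 6.01% higher, at most 2 genes of any list passed in either direction.

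**Figure D5:**
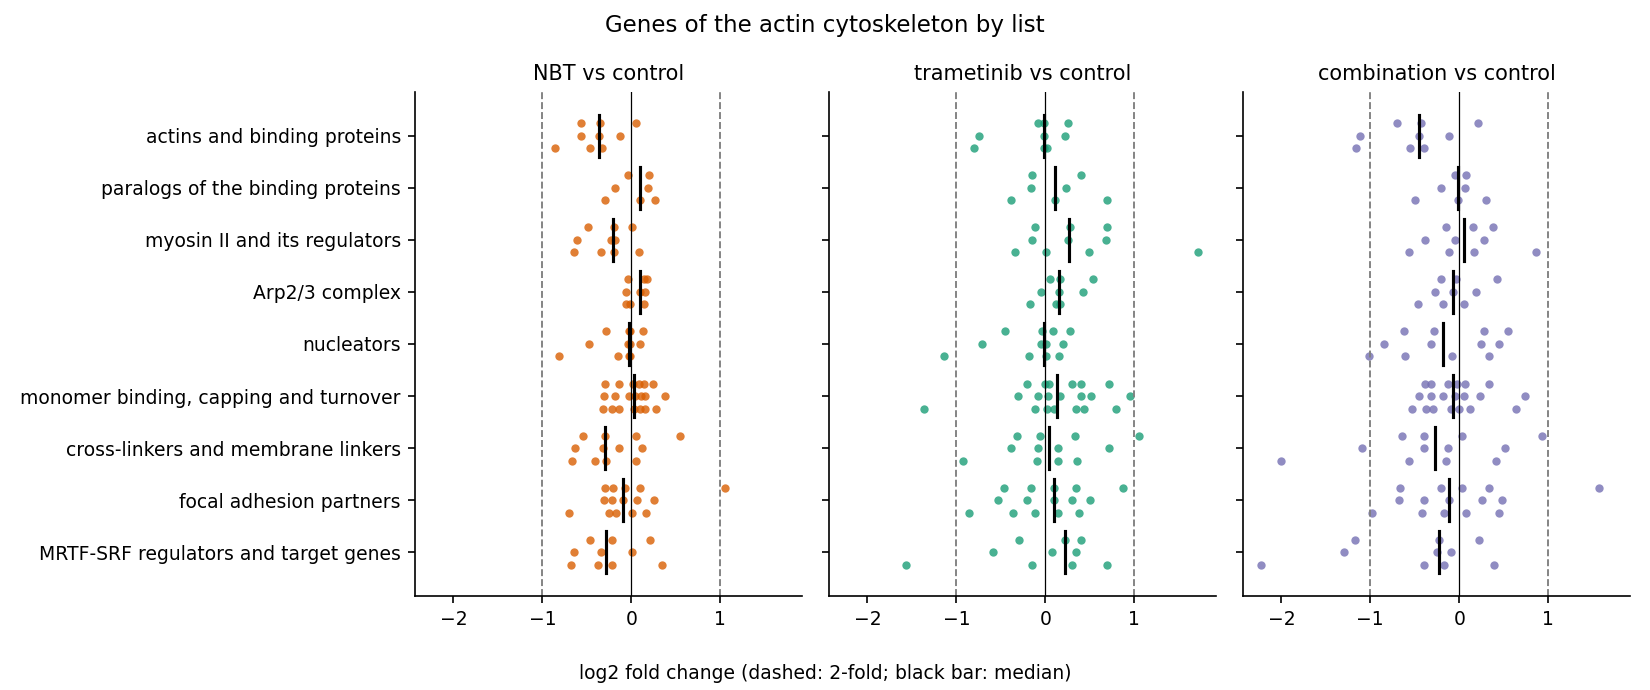
Log2 fold change (horizontal axis) of genes with at least 50 reads in the higher library, by list (rows), for NBT, trametinib and the combination against control, with each list's median as a black bar and dashed lines at 2-fold. In the first row, the genes described here, all but TPM4 lie to the left of 0 with NBT (median -0.36) and with the combination (-0.45). The medians of the Arp2/3 complex stay near 0, with single subunits from -0.46 to 0.43 with the combination. Genes with 3 or fewer reads in either library, such as CNN1, are not drawn but count in the medians.

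Over the 4 libraries, the genes whose pattern came closest to that of ACTB were LRFN4, CPSF1, ATP8B1, ADAT3 and ZNF318, by the Euclidean distance between log2 CPM values centred on each gene's mean, among 9986 genes with at least 100 reads in every library. Their distances ran from 0.033 (LRFN4) to 0.052 (ZNF318). LRFN4, for example, had 1731 reads in the control library, 1192 under NBT, 1688 under trametinib and 1107 under both drugs. Among the genes described here, ACTN4 was the closest to ACTB, at 0.174 and place 93, followed by TPM1 at 0.257, while ACTG1 was at 0.450 and ACTN1, the farthest, at 0.747. With 4 points per gene this is a description of shape, in which many genes lie close together.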

How the data were processed

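RNA from 4 libraries, 1 per condition, was sequenced on the BGISEQ-500 platform. The submitters' processing notes name Bowtie2 2.2.5, RSEM 1.2.8 and the build hg38, without their order or settings. The authors deposited estimated counts, not normalized, TPM and FPKM values for 16834 genes and 70268 transcripts. The labels' protocol names removal of bacterial ribosomal RNA with a kit for microbes, DNase treatment and random priming, and whether it was the protocol of these human libraries is not known. FPKM served only as an alternative.

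Titles gave the condition of each library. Whole numbers were made of the estimated counts that the authors deposited, and these were divided by the library sum (Python 3.11.15, pandas 2.3.3, scipy 1.17.1). Genes with at least 50 reads in the higher of 2 libraries were set beside the 10 genes, and the 2-fold limit is that of the study's methods. No test was run, since 1 library per condition gives none. Alternatives were edgeR 4.0.16 TMM factors, DESeq2 1.42.0 size factors, deposited TPM or FPKM with 0.1 added, 5 reads added, summed transcripts and scaling to 19 reference genes. The fold change and its interval were tested on counts simulated with counting error only. That check leaves out PCR copies, the division of reads between genes and the spread between cultures.

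The 10 genes and the gene lists were chosen with earlier results of these data known. Named genes were the 10 genes, the reference, actin and paralog lists, for each other list the 2 largest log2 fold changes with NBT and with the combination among genes with at least 100 reads, and the 5 genes most like ACTB. SRF, MRTFA, MRTFB and CNN1 were named outside this rule after their values were seen. Some genes and 1 list are not reported here. Intervals and floors cover counting error only, since PCR copies of 1 molecule are counted as separate reads.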

Additional observations from a re-analysis of the deposited data

How the results depend on the processing

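The log2 fold changes of the 9 genes, their medians and counts past 2-fold, and the difference between NBT without and with trametinib were recomputed under 7 alternatives, and the other values were not. Of 315 log2 fold changes of single genes, 12 changed sign, 7 of them values whose interval held 0: CFL1 with trametinib (-0.06 with TMM factors, -0.05 with median-of-ratios factors and -0.01 with the deposited TPM), TPM4 in the combination against trametinib (0.04 with TMM factors, 0.03 with median-of-ratios factors and 0.27 with the reference genes) and TPM1 in the combination against NBT (0.12 with the reference genes). The 5 whose interval left out 0 were TPM4 with NBT (-0.02 with the deposited TPM) and, with scaling to the reference genes, FLNA in the combination against control (0.15) and against trametinib (0.18), and ACTB (0.08) and ACTN4 (0.12) in the combination against NBT. That scaling also took the median of all genes to 0.29, 0.25 and 0.23 in the comparisons of the combination with the control, trametinib and NBT libraries, since the reference genes were themselves lower there, so changes under it are read relative to those shifts. The median of the 9 genes under it was -0.30 for NBT against control, -0.18 for the combination against control, -0.14 against trametinib and 0.12 against NBT. No gene then passed 2-fold in the combination against control (0, where library sums gave 2), and the difference between NBT without and with trametinib was 0.09 for ACTB and 0.16 for TPM4. The recomputed differences of genes other than ACTB were added after the data were seen.

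With the deposited TPM the median for NBT against control was -0.46 and for trametinib against control -0.03, and with TMM factors it was -0.09 for trametinib against control and -0.37 for the combination against trametinib. Median-of-ratios factors gave -0.08 for trametinib against control. The difference of ACTB was -0.08 with TMM and with median-of-ratios factors and -0.07 with the deposited TPM. At the 1.5-fold limit the count of the 9 genes was 1 for NBT against control, 2 for trametinib against control, 2 for the combination against trametinib and 1 against NBT. No paired analysis was possible because each condition is 1 library, and for the same reason no replicate could be left out. The spread between cultures was not measured.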
